A study of Mus musculus with 2 samples.

Results

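Bmp15, Ooep and 8 further genes whose products the growing oocyte makes for its granulosa cells, its egg coat or the early embryo were examined for enrichment with ELAVL2 in newborn mouse ovary. The 10 genes were Gdf9, Bmp15, Zp1, Zp2, Zp3, Oosp1, Nlrp5, Nlrp14, Padi6 and Ooep, and they were looked up by symbol in the authors' deposited table of peaks and genes. That table held 11969 genes, of which 6158 were overlapped by a peak. Of the 10 genes, 2 were overlapped by a peak (Bmp15 by 5, Ooep by 7), 1 was paired only with a peak outside it (Nlrp5), and 7 had no entry. Over all protein-coding genes of the reference annotation, 23.4% were overlapped by a peak (5128 of 21900), so 2 of 10 lay near that background.

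RIP-seq (RNA immunoprecipitation with sequencing) recovers a protein on an antibody together with its attached RNA and sets the sequenced RNA against that of the unselected lysate. The series has 1 ELAVL2 RIP sample and 1 input sample, both from P0 ovary, with no treatment and no genotype given in the labels, and 100 ovaries homogenised together. The input was 5% of the starting material, taken from the cleared lysate without antibody. There was 1 sample per arm and no pulldown with a control antibody, so no difference below has a replicate check, no p-value between the arms is given, and RNA bound by ELAVL2 cannot be told apart from RNA that came down in another way. Of 172711531 aligned RIP tags (single sequence reads) and 210270620 input tags, 13787676 and 19479946 were left after the peak caller kept 1 tag per position and strand.

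ELAVL2 belongs to the Hu family of RNA-binding proteins, which bind U-rich and AU-rich stretches of mRNAs and affect their stability and translation. In the newborn mouse ovary, oocytes leave germ cell clusters and become enclosed in primordial follicles, and much of the later oocyte programme is laid down as stored mRNA. GDF9 and BMP15 are secreted growth factors of the TGF-beta superfamily by which the oocyte acts on granulosa cells. ZP1, ZP2 and ZP3 are the glycoproteins of the mouse zona pellucida, and OOSP1 is a secreted oocyte protein. NLRP5 (MATER) and OOEP (FLOPED) belong to the subcortical maternal complex of oocytes, PADI6 is needed for the cytoplasmic lattices of the egg, and NLRP14 is an oocyte protein of the same NLRP family.

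Of the values the authors gave each peak, 3 are used here. The pileup is the number of RIP tags that overlap its summit, the fold is that pileup over the local input level with a pseudocount of 1 on both, and the -log10 q is the peak caller's adjusted significance. The local input level given here was computed back from pileup and fold and is in tags scaled to the RIP depth, so that 1 input tag equals 0.708. It is the caller's background, which may be taken at the summit, from a wider window or from the genome-wide level of 0.369, whichever is largest. Intervals are exact Poisson 95% intervals of the pileup at a fixed input level. They cover counting error of the RIP tags only, not that of the input or between experiments.

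Of the growth factors, Bmp15 (ENSMUSG00000023279, minus strand, chrX:6314107-6320721, mm10) held 5 peaks and Gdf9 held none. The Bmp15 peak farthest from the 3′ end, chrX:6315860-6315912, had a pileup of 14 over an input level of 2.94. The next 3 towards the 3′ end were chrX:6315603-6315794 with 21 over 3.29, chrX:6315459-6315524 with 21 over 4.25, and chrX:6314979-6315341 with 30 over 6.37. The last, chrX:6314130-6314761, had 38 over 9.20 and its summit 206 bases before the annotated end. RIP pileup and input level were thus both lowest at the peak farthest from the 3′ end and highest at the one nearest to it.

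The folds of the 5 Bmp15 peaks were alike within their intervals. In the same order, from the 5′ side to the 3′ end, the folds were 3.81 (2.20 to 6.22), 5.13 (3.26 to 7.71), 4.19 (2.67 to 6.31), 4.21 (2.88 to 5.95) and 3.82 (2.73 to 5.21). All 5 intervals overlapped, so the peaks have no order by fold beyond counting error. The -log10 q was lowest, 3.10, at the peak on the 5′ side and highest, 8.31, at the 3′ end. The 3′ peak, 632 bases long, was longer than 99.7% of the 28332 peaks of the series. Its fold was higher than that of 54.7% of them and its -log10 q than that of 89.8%.

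The Bmp15 peaks were all in the last part of the gene. Their summits lay between 73.3% and 96.9% of the way from the annotated start, and none was called in the first 4809 bases of the gene body. Positions here, and for Ooep below, run along the whole gene body, introns included. No exon annotation was used, so they are not positions along the mRNA. Of all 19333 peaks that overlap exactly 1 gene and have their summit in it, 64.6% lay in the last 30% of the body. No other gene of the table overlapped or was paired with the Bmp15 peaks. The RefSeq body of Bmp15, chrX:6314054-6320724, held the same number of peaks.

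Gdf9, the closest relative and partner of Bmp15, was absent from the table. Its RefSeq body on chromosome 11 (53430774 to 53437904) held no peak, and no peak lay within 50 kb of it. The nearest, 97524 bases away, was inside Zcchc10 (pileup 46, fold 4.05). Gdf9 at 7.13 kb and Bmp15 at 6.67 kb are of similar length. The table does not give RIP or input levels outside peaks, so a transcript that was present in the input but not enriched cannot be told apart here from one that was scarce.

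**Figure D1:**
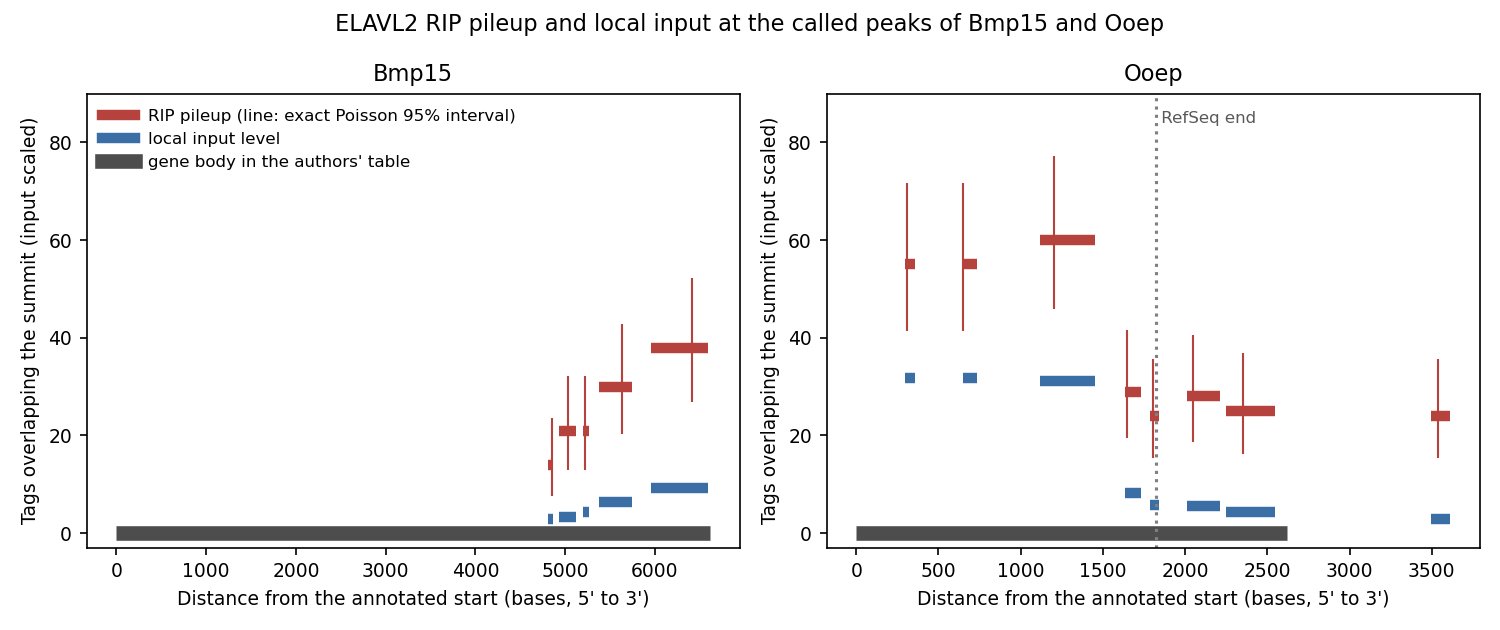
RIP pileup (red, with exact Poisson 95% intervals) and local input level (blue) of each called peak, in tags with the input scaled to the RIP depth, against distance in bases from the annotated start of Bmp15 (left) and Ooep (right). In Bmp15 both are highest at the 3′ end, at 38 over 9.20. In Ooep the input level drops from 31.1 to 8.28 between neighbouring peaks in mid-gene, and the dotted line marks the end of the gene in RefSeq.

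Of the maternal-effect genes, Ooep (ENSMUSG00000032346, minus strand, chr9:78376109-78378725) was the only 1 of 4 overlapped by a peak. It held 7 peaks, with an eighth past its 3′ end. The 3 nearest its start had high tag numbers in both arms. They were chr9:78378369-78378429 and chr9:78377989-78378073, each with a pileup of 55 over an input level of 31.9, and chr9:78377271-78377607 with 60 over 31.1.

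The 4 further peaks inside Ooep had lower tag numbers and much lower input levels. The peak chr9:78376992-78377089 had 29 over 8.28 and chr9:78376885-78376938 had 24 over 5.77. The peak chr9:78376516-78376715 had 28 over 5.66 and chr9:78376178-78376474 had 25 over 4.25. From the first to the last of the 7, the input level went from 31.9 to 4.25 and the RIP pileup from 55 to 25, a larger drop in proportion for the input.

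The Ooep folds were lower at the start of the gene and higher at its end. The 3 peaks nearest the start had folds of 1.70 (1.29 to 2.21), 1.70 (1.29 to 2.21) and 1.90 (1.46 to 2.43). The 4 towards the 3′ end had 3.23 (2.20 to 4.60), 3.69 (2.42 to 5.42), 4.35 (2.94 to 6.22) and 4.96 (3.27 to 7.22). The intervals of the last pair lie above all of the first 3. That of 3.23 reaches just into all of the first 3, and that of 3.69 reaches only into that of 1.90. The -log10 q was 1.43 at each of the 2 peaks nearest the start and 7.85 at the peak nearest the end.

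The peak past the 3′ end had the highest fold of any peak paired with these genes. It lay at chr9:78375114-78375230, 879 bases beyond the annotated end, with a pileup of 24 over an input level of 2.83. Its fold was 6.53 (4.27 to 9.58) and its -log10 q 10.4, above those of 90.3% and 95.5% of all peaks. It overlapped no gene of the table and was paired with Ooep alone.

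Where Ooep ends differs between annotations. In RefSeq the gene is 1686 bases long (chr9:78376903-78378588), against 2617 bases in the authors' table. The 2 inner peaks with the highest folds (4.35 and 4.96) have their summits 225 and 530 bases past the RefSeq end, and the outer peak 1717 bases past it, so that 5 of the 8 overlap the RefSeq body. The summits inside the body of the authors' table lay between 11.7% and 89.9% of the way along it, and 2 of 7 were in the last 30%, against 64.6% of peaks over all genes. The called peaks carry no strand.

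**Figure D2:**
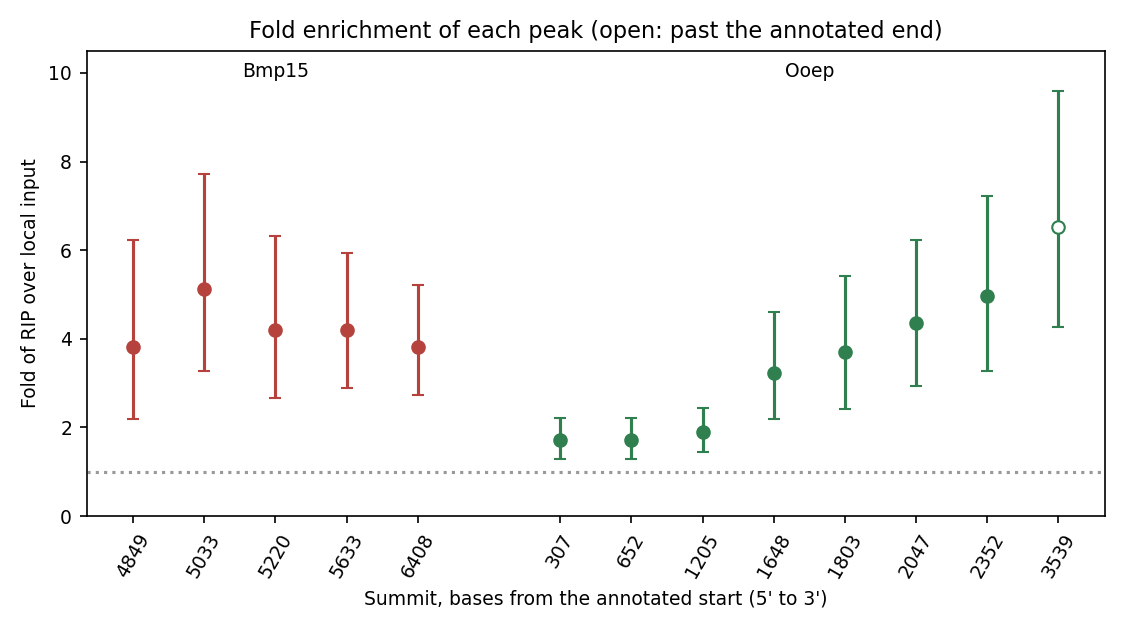
Fold of RIP pileup over local input (pseudocount of 1) for each peak of Bmp15 (red) and Ooep (green), ordered 5′ to 3′ and labelled by the summit's distance in bases from the annotated start. Bars are exact Poisson 95% intervals of the RIP pileup at a fixed input level, the dotted line marks a fold of 1, and the open point is the Ooep peak past the annotated end. All Bmp15 intervals overlap, while the Ooep folds go from 1.70 near the start to 4.96 near the end.

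The input levels are the background that the peak caller set from the unselected lysate, and not all of them are tag counts at the summit. The levels at the 3 Bmp15 peaks nearest the 3′ end equalled 6, 9 and 13 whole input tags (within 0.01 tag), and across its 5 peaks the level was 7.97 to 25.0 times the genome-wide background. The 3 Ooep peaks nearest the start stood at 45, 45 and 44 input tags, 84.5 to 86.4 times the background. The 2 nearest the 3′ end inside the gene stood at 8 and 6 tags and the peak past the end at 4. The Bmp15 peaks with folds of 3.81 and 5.13 stood at 4.15 and 4.65 tags. The Ooep peaks with folds of 3.23 and 3.69 stood at 11.7 and 8.15. These levels are not whole tags, so they are not counts at the summit.

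Because 1 tag was kept per position and strand and tags were extended to 50 bp, no pileup can exceed 100, and the highest in the series was 97. The fold that a peak can reach is therefore bounded where the input level is high, as at the 3 Ooep peaks nearest the start. How far this bound bears on their folds was not tested. The 3 Ooep peaks with the highest pileups had the lowest folds of the 12 peaks inside these genes. The peak with the highest fold was also the one with the lowest input level in 932 of the 1705 genes of the series with at least 5 peaks (54.7%). This held for Ooep and not for Bmp15, whose highest fold was at its second lowest input level.

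**Figure D3:**
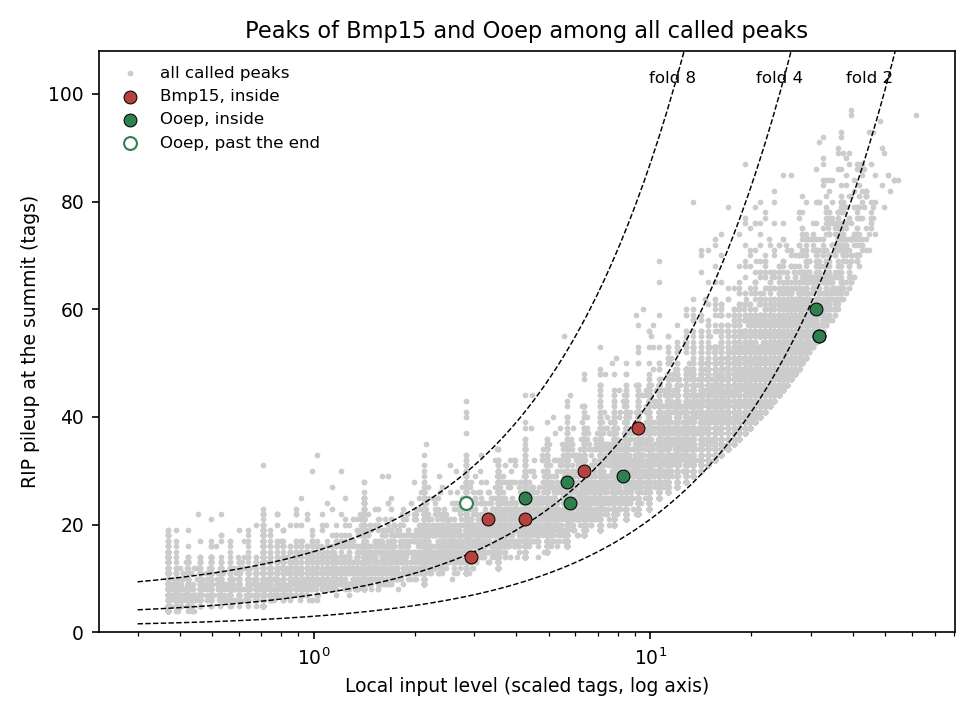
RIP pileup at the summit (tags) against local input level (scaled tags, log axis) for all 28332 called peaks (grey) and for the peaks of Bmp15 (red) and Ooep (green; open, past the annotated end). Dashed lines mark folds of 2, 4 and 8; 3 Ooep peaks lie under the line for 2, at input levels of 31.1 and 31.9.

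Peaks covered 1306 bases or 19.7% of the Bmp15 body and 1132 bases or 43.3% of the Ooep body, against a median of 0.635% over all overlapped genes, whose median body is 38.7 kb. Ooep had 2.67 peaks per kb, more than 98.1% of overlapped genes, and Bmp15 had 0.756, more than 92.5%. Both bodies are short, which raises such a density. Among the 931 overlapped genes with bodies of 1 to 10 kb the medians were 0.422 peaks per kb and 4.08% of the body. Ooep had more peaks per kb than 98.4% of these and Bmp15 than 73.7%. By best fold they were not extreme: the best of Bmp15 was above that of 63.2% of overlapped genes and the best of Ooep above that of 59.0%. That best Ooep peak lies past the RefSeq end of the gene. Among the Ooep peaks that overlap the RefSeq body the largest fold was 3.69, against a median best fold of 4.38 over overlapped genes. At least 5 peaks overlapped 7.21% of protein-coding genes (1580 of 21900).

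Genes with the most similar profile were sought by the distance in log2 number of peaks, log2 best fold and log2 pileup of the best peak, over 4792 other genes with an approved symbol. The gene bodies were those of the authors' table. Nearest to Bmp15 were Dip2b (5 peaks, best fold 5.07 at a pileup of 22) and Tmem170 (5 peaks, 5.19 at 20). Nearest to Ooep were Sass6 (7 peaks, 5.10 at 27) and Rab11fip4 (7 peaks, 4.65 at 27). Of the 4792 genes compared, 21 lay within a distance of 0.25 of Bmp15 and 14 within that of Ooep. The bodies of these 4 genes were 11.8 to 180.8 kb long, so they had fewer peaks per kb than Bmp15 and Ooep.

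None of the zona pellucida genes and no peak of Oosp1 appeared in the table. The RefSeq body of Zp1 on chromosome 19 (10914296 to 10920601) had no peak within 50 kb. The nearest peaks to Zp2 (chromosome 7, 120126762 to 120145291) and Zp3 (chromosome 5, 135980105 to 135988624) were 39226 and 24273 bases away. The one near Zp3 was inside Dtx2 and the one near Zp2 lay past the end of Anks4b. For Oosp1 (chromosome 19, 11667460 to 11691051) the nearest was 34566 bases away, with a pileup of 8. Thus none of the 4 egg coat members held a called peak, and none had one nearer than 24273 bases.

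Among the remaining maternal-effect genes, Nlrp5 (chr7:23385889-23441922, plus strand) was paired only with the peak chr7:23356227-23356316, which lies 29573 bases upstream. That peak had a pileup of 16, an input level of 2.83 and a fold of 4.44 (2.65 to 7.04). It is inside Nlrp4e, another member of the family, and is therefore not a peak of the Nlrp5 transcript as annotated. The RefSeq bodies of Nlrp14 (chromosome 7, 107113455 to 107198103) and Padi6 (chromosome 4, 140727355 to 140742643) held no peak. The nearest to Nlrp14 was 13751 bases away (pileup 7), and the nearest to Padi6, 4166 bases away (pileup 42, fold 2.30), was inside Rcc2.

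The members were also set out by length, since longer genes at large were more often overlapped. Peaks overlapped 9.46% of protein-coding genes of 1 to 10 kb (601 of 6354), 20.4% of those of 10 to 30 kb and 36.8% of those of 30 to 100 kb. The 5 shortest members, Ooep, Zp1, Bmp15, Gdf9 and Zp3, included both with peaks. The 3 of middle length, Padi6, Zp2 and Oosp1, and the 2 longest, Nlrp5 and Nlrp14, had none. With 10 genes these counts are a description only.

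The windows around gene starts were also looked at, since RefSeq promoter windows (250 bases before to 50 after each start, GRCm38.p6, the assembly of mm10) are given for 6 of the 10 genes. None of their 7 windows held a peak, and of all 32851 windows 107 did (0.326%). At so low a share, 7 windows are too few to tell these genes from others. The bases under the peaks of Bmp15 and Ooep were not used here, so no U-rich element can be shown for them.

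Among genes of GDF9 and BMP15 signalling, every listed receptor and several SMADs held peaks. Of 14 genes of this signalling, 10 were overlapped, against 23.4% of protein-coding genes. These genes are long, with a median of 69.8 kb against 17.1 kb. Of the 7 of 30 to 100 kb, 6 were overlapped, against 36.8% of all protein-coding genes of that length, and of the 5 longer ones 3 were, against 55.0%. Bmpr2, the type II receptor of both ligands, held 10 peaks, the best at a fold of 5.11 with 6 tags in the pileup. Tgfbr1, a type I receptor used by GDF9, held 6 and Bmpr1a 8, the best of each at a fold of 5.86 with 9 tags. Bmpr1b, the type I receptor of BMP15, held 9, the best at a fold of 3.79 with 26 tags.

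The best folds of Bmpr2, Tgfbr1 and Bmpr1a rest on few tags, with intervals of 2.34 to 10.3 for Bmpr2 and 3.0 to 10.6 for Tgfbr1 and Bmpr1a. Smad1, which carries BMP signals to the nucleus, held 6 peaks, the best at a fold of 4.38 with 5 tags. Acvr1, Acvr1b, Smad4, Smad5 and Furin, a protease that processes such ligands, held 1 peak each. Smad2 and Bmp6 were paired only with peaks outside them, and Smad3 and Smad7 with none. These transcripts are also made by somatic cells of the ovary, and the files do not tell which cells they came from. At a -log10 q of at least 3, 6 of the 14 were left, against 19.5% of protein-coding genes. When only peaks paired with exactly 1 gene were kept, 1 of the 14 was left, against 9.75% of protein-coding genes. Pairs there include genes upstream or downstream of a peak. Every peak counted for the overlapped genes of this list overlapped that gene alone.

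Of 10 genes of the egg coat and its partners, 4 of them members, 2 were overlapped, Izumo1r and Cd9, against 23.4% of protein-coding genes. Izumo1r (Juno), the egg's receptor for sperm IZUMO1, held 1 peak with a fold of 4.97 (2.69 to 8.56) at a pileup of 11. Cd9, a tetraspanin of the egg membrane needed for sperm fusion and made by many cell types, held 7, the best at a fold of 4.30 (3.21 to 5.66) with 49 tags. The members Zp1, Zp2, Zp3 and Oosp1 and the further genes Zp3r, Oosp2, Oosp3 and Astl, the oocyte protease that cleaves ZP2 after fertilisation, were not overlapped.

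Of 18 genes of the subcortical maternal complex and the NLRP family, 10 were overlapped, among them Ooep as the only one of the 4 members in the list. Of the 14 that are not members, 9 were. The share over protein-coding genes is 23.4%, and 6 of the 10 list genes of 30 to 100 kb were overlapped, against 36.8% of all genes of that length. Nlrp4a had the highest fold of the list, 6.72 (4.23 to 10.2) at a pileup of 20, followed by Nlrp9a with 5.86 at a pileup of 9, Ooep, and Nlrp4e with 4.68 at a pileup of 7. The place of Ooep rests on a peak past its RefSeq end. These NLRP genes are close copies of each other, so tags could be placed in the wrong copy and the names are uncertain. Nlrp2 held 1 peak (4.16 at a pileup of 12) and Zbed3 4 (2.92 at a pileup of 37). Tle6, a core component of the complex with OOEP, was not in the table, and Khdc3 was paired only with 7 peaks upstream of it, the nearest 4220 bases away.

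Of 20 other maternal-effect and oocyte genes, 6 were overlapped, against 23.4% of protein-coding genes. These genes are short, with a median of 6.62 kb: of the 13 of 1 to 10 kb, 2 were overlapped, against 9.46% of all genes of that length. Lhx8, an oocyte transcription factor, held 15 peaks (best fold 4.83 at a pileup of 17). Btg4, which brings the CCR4-NOT deadenylase to maternal mRNAs, held 6 (5.42, interval 3.66 to 7.75, at a pileup of 28). Rfpl4, an oocyte RING finger gene, held 3 (5.85, interval 4.38 to 7.65, at a pileup of 51). Dppa3, the maternal factor Stella, held 5 with a best fold of 1.94 at an input level of 24.8, against folds of 1.70 to 1.90 at levels of 31.1 to 31.9 at the 3 Ooep peaks nearest the start.

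Smarca4 held 1 peak (5.86 at a pileup of 9), and the 3 peaks of Ago2 overlap a second gene. Figla, which drives the zona genes in the oocyte, and Nobox, which acts on Gdf9, were not overlapped. In the PAD family, 1 of 5 was overlapped, against the same 23.4%: Padi2 held 3 peaks (best fold 4.96 at a pileup of 25), each of which overlaps a second gene.

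**Figure D4:**
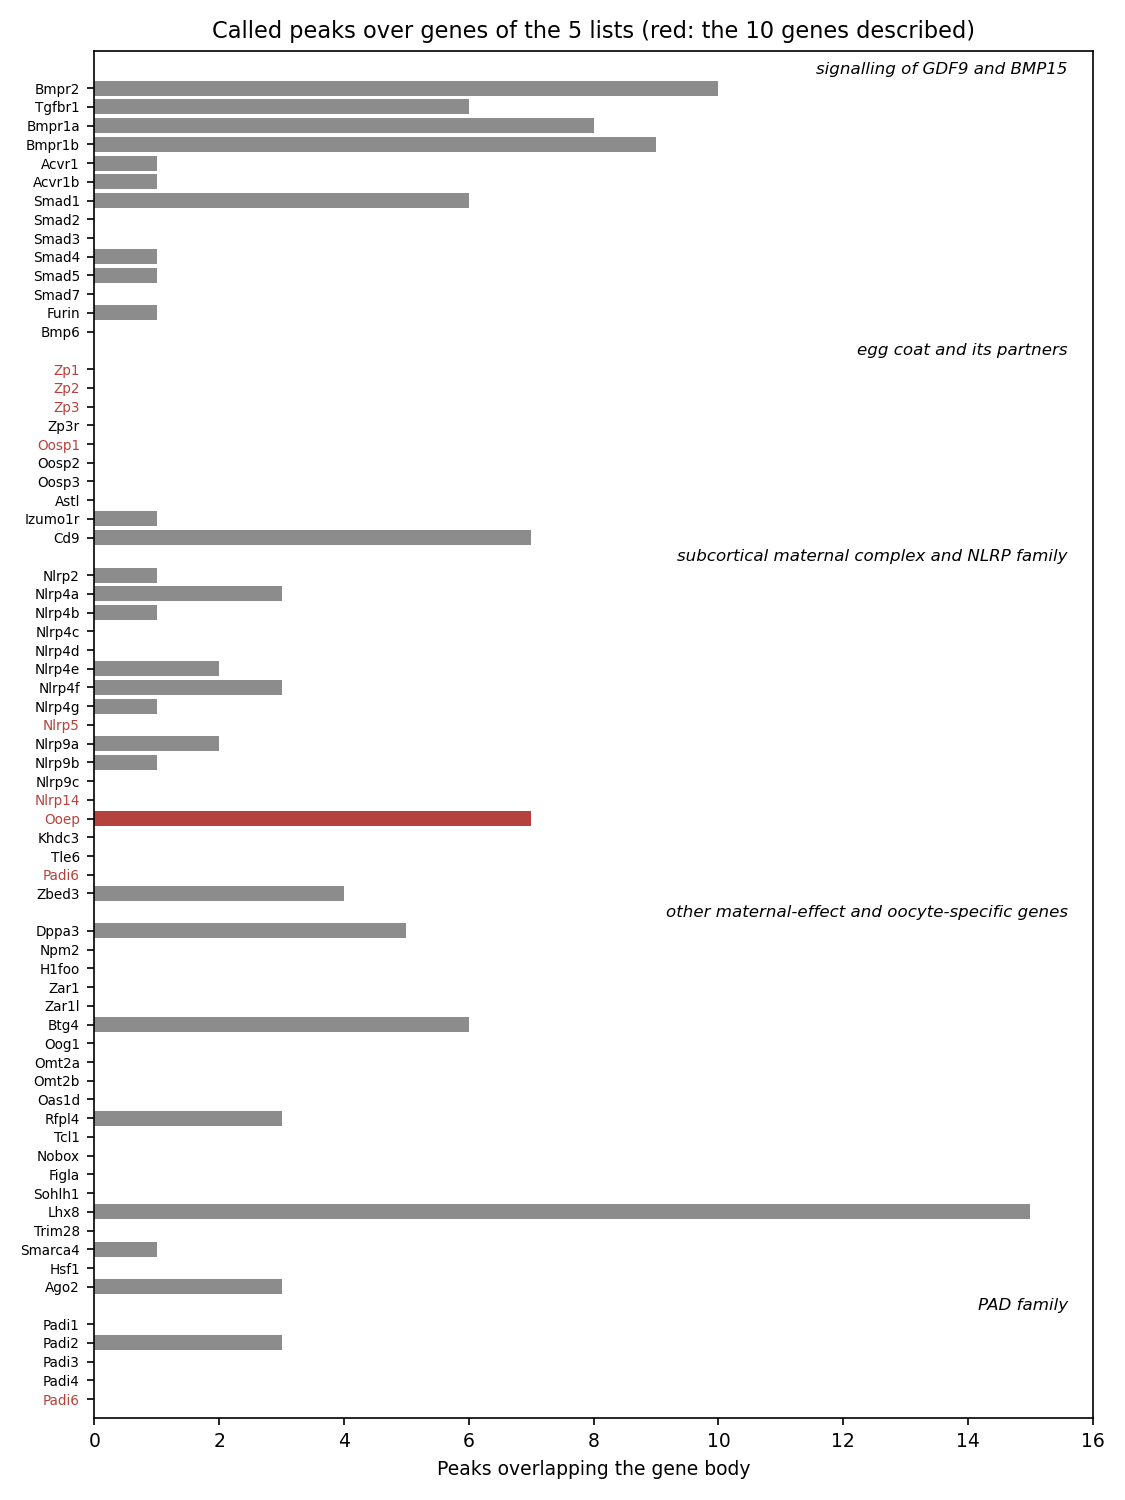
Number of called peaks that overlap the gene body for every gene of the 5 lists, with the 10 genes described here in red (Padi6 is shown in 2 lists; Gdf9 and Bmp15 are in none). Ooep with 7 peaks is the only red gene with a bar, and Lhx8 with 15 and Bmpr2 with 10 have the most.

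Markers of the cells in the sample gave the following. Of 7 germ cell and oocyte markers, 5 were overlapped (Ddx4, Dazl, Sycp3, Lhx8 and Kit). Each of the 7 Sycp3 peaks also overlaps another gene. Of 30 markers of pregranulosa, stromal, endothelial, erythroid and immune cells, 2 were (Fshr and Tek). The share over all protein-coding genes was 23.4%. A peak marks enrichment in the RIP over the input and does not give a marker's level, so these counts cannot check the tissue label.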

How the data were processed

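RIP and input RNA of P0 ovary were sequenced as reads of 36 bases. The build mm10, the aligner TopHat2 (2.0.8b), the peak caller MACS2 (2.1.0.20140616) and the tools FastQC (0.11.2) and CASAVA (1.8.2) are named in the submitters' processing notes. Per the file headers, 3 RIP and 3 input lanes were pooled, tags were extended to 50 bp, 1 was kept per position and strand, and peaks were called at a q of 0.05 without a shift model. The caller takes no account of splicing or strand. The signal (pileup), the fold enrichment ratio and the -log10 p and q were deposited by the authors. The sources used here do not give the method behind their gene table.

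From its 85730 rows, 42176 exact repeats were dropped. Coordinates are those of the peak list, whose starts are 1 higher than in the gene table. Pileup and fold were equal in both files for 100% of peaks. A gene was counted as overlapped at 1 shared base, apart from upstream and downstream rows. Table symbols were matched to RefSeq genes of GRCm38.p6 directly or by an unambiguous synonym (94.3% of overlapped symbols). Overlap counting was tested on simulated data. The scripts ran on Python 3.11.15 with pandas 2.3.3, numpy 2.4.6, matplotlib 3.10.9 and scipy 1.17.1.

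The members, lists and rules were chosen with earlier results of these data known. All 10 members are named, with the 4 genes of largest fold in each list (others were named after their values were seen) and the 2 genes most like each member with a peak. Alternatives were stricter q, fold and pileup, peaks paired with 1 gene, summits inside the body, reference bodies, merged peaks and a fold without pseudocount. U-rich motifs under the peaks had been planned for but were not searched, since no genome sequence was used here.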

Additional observations from a re-analysis of the deposited data

How the results depend on the processing

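Bmp15 and Ooep both kept at least 2 peaks in each setting. The stricter settings and merging can only remove or join peaks, so they could not give another member one. With the reference bodies, which could, Bmp15 and Ooep were still the only members with a peak. Bmp15 went from 5 peaks to 3 at a fold of at least 4 and to 2 when peaks less than 200 bp apart were merged. Ooep went from 7 to 4 at a -log10 q of at least 3, to 2 at a fold of at least 4 and to 3 when merged. Without the pseudocount the best fold was 6.38 in Bmp15 and 5.89 in Ooep. The 2 outside pairs fell to 1 at a pileup of at least 20 and to 1 with peaks paired with exactly 1 gene. The signalling list fell from 10 to 6 at that q, to 4 at that fold and to 1 with peaks paired with exactly 1 gene. That last setting also drops peaks paired with a further gene that they do not overlap. The egg coat list fell from 2 to 1 at that pileup and to 1 with peaks paired with 1 gene. The subcortical and NLRP list fell from 10 to 5 at that pileup, 5 at that fold and 6 with peaks paired with 1 gene. The PAD list fell from 1 to 0 with peaks paired with 1 gene. The share of protein-coding genes with a peak, 23.4%, was 19.5% at that q, 17.1% at that pileup, 13.5% at that fold and 9.75% with peaks paired with 1 gene, each of which keeps fewer peaks. Of 75 alternative values, 53 stayed within the limits set for them, which does not mean that they were unchanged. Ooep went from 7 peaks to 5 with the reference body. At that q the subcortical and NLRP list went from 10 to 7 and the other maternal-effect list from 6 to 4. Each of these counted as within the limits. The alternatives for input level and position were chosen after seeing the data. No paired analysis was possible because each arm has 1 sample.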

Other observations

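Past the 3′ end of Nlrp5 lies a run of 7 peaks that the authors' deposited table pairs with other genes (Gm25196 and Vmn1r-ps84). The first starts 4403 bases beyond the RefSeq end of Nlrp5, with a pileup of 34, an input level of 8.49 and a fold of 3.69. The last starts 13257 bases beyond it, with a pileup of 30 and a fold of 5.21. The largest fold, 9.52, was at chr7:23450353-23450409 (pileup 22, input level 1.42). None of the 7 overlaps a gene of the table, and 1 overlaps a RefSeq gene, Gm18598. These peaks lie closer to the end of Nlrp5 than the peak inside Nlrp4e that it does pair with Nlrp5.

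Some other oocyte genes were likewise named only by peaks outside them. Zar1, a maternal-effect gene for mRNA storage, was paired with a peak 691 bases upstream (fold 4.70 at a pileup of 17). Npm2, a chromatin factor of the egg, was paired with 4 upstream peaks, the nearest 9151 bases away, with folds of 1.92 to 4.09. Khdc3 was paired with 7, at distances of 4220 to 14645 bases and folds of 2.09 to 6.62.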
